A study of Mus musculus with 10 samples.

Results

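The gene of lysine-specific demethylase 1 (LSD1, Kdm1a) and 9 genes of its partners were examined: the paralogue Kdm1b, the scaffolds Rcor1, Rcor2 and Rcor3, the deacetylases Hdac1 and Hdac2, and the subunits Phf21a, Hmg20b and Zmym2. The genes were listed as known partners and no measured value entered the rule, though earlier results of these data were known when they were chosen. They are 10 of 26180 genes with a curated RefSeq transcript on GRCm38 chromosomes 1 to 19, X and Y. A peak was counted for a gene when its midpoint lay in the gene body or within 30 kb of one of its transcription start sites (TSS). It was counted as a promoter peak when the midpoint lay between 1000 bp upstream and 100 bp downstream of a TSS.

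The peaks came from chromatin immunoprecipitation sequencing (ChIP-seq) of skeletal muscle of C57BL/6J mice that the labels give as 10 weeks old and as fed or starved for 24 h. No transgene or deletion is named in the labels, and they do not say how many animals or which muscles entered a library. Antibodies were directed to the glucocorticoid receptor (GR), to LSD1 and to histone H3 mono- or dimethylated at lysine 9 (H3K9me1 and H3K9me2). Each antibody had 1 library per condition, so the 8 peak lists have no replicates, no test between conditions was possible, and the depth of each library is unknown. Both GR libraries carried one library code and both LSD1 libraries another. For H3K9me1 and H3K9me2 the fed library carried the first code and the starved library the second, so for these marks condition and code cannot be told apart. The lists differed widely in length, from 6624 peaks for H3K9me2 starved to 171402 for H3K9me2 fed, with 14108 and 37783 for GR and 16616 and 66332 for LSD1 in the fed and the starved state. Of 10 skeletal muscle marker genes, 10 had a GR fed and 10 an LSD1 fed peak, with a promoter peak at 7 and 8. Of 15 markers of satellite, endothelial, immune, fibro-adipogenic, fat and nerve cells, 7 had a GR fed and 8 an LSD1 fed peak, with 0 promoter peaks in either list. Of all genes, 43.1% had a GR fed and 51.1% an LSD1 fed peak, and 13.4% and 22.4% a promoter peak. In the GR and LSD1 starved lists, promoter peaks were at 9 and 7 of the muscle markers and at 1 and 1 of the others.

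LSD1 is a flavin-dependent enzyme that removes methyl groups from histone lysines. It depends on a CoREST scaffold, such as the one encoded by Rcor1, to act on nucleosomes. The scaffold also holds HDAC1 or HDAC2, which remove acetyl groups. The complex is best known as a corepressor that DNA-binding factors bring to promoters and enhancers. GR is the nuclear receptor activated by glucocorticoids, hormones that rise with starvation. Whether the genes of this machinery themselves carried GR, LSD1 or methylated H3K9 is described here.

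The sequences that carried the main result are the 9 short LSD1 peaks of starved muscle within the Kdm1a gene, which lies at chr4:136550533-136602723 on the minus strand of GRCm38. They are shown on the gene's strand, with exon bases in capitals, because each of them fell on an exon. Exons are numbered over the merged curated transcripts.
Exon 2, chr4:136592985-136593043: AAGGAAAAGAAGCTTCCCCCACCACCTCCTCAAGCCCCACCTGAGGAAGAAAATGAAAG
Exon 6, chr4:136573115-136573165: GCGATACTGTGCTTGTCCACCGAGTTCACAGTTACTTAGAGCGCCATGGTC
Exon 9, chr4:136568579-136568637: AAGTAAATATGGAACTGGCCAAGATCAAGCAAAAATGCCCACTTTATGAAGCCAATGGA
Exon 12, chr4:136560364-136560417: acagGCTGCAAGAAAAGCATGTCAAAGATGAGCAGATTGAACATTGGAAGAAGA
Exon 15, chr4:136557694-136557751: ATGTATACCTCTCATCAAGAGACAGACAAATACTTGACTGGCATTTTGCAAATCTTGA
Exon 16, chr4:136555271-136555319: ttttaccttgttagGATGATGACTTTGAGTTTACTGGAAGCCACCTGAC
Exon 17, chr4:136554225-136554273: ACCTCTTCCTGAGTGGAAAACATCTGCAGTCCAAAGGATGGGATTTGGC
Exon 19, chr4:136552474-136552524: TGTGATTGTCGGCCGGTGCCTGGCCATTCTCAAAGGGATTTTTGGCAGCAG
Exon 20, chr4:136551888-136551936: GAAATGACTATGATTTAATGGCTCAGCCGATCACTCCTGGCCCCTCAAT

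A further 4 sequences are shown, each on the strand of its gene, because they are peaks the promoter results turn on. The first is the part of the Kdm1a GR fed peak upstream of the TSS, with the bases of the LSD1 starved peak in capitals. The next are the upstream part of the Rcor1 LSD1 fed peak and a Zmym2 LSD1 fed peak, with GC boxes (GGGCGG on either strand, overlaps included) in capitals. The last is the intronic GR fed peak of Phf21a, with the bases it shared with a GR starved peak in capitals.
Kdm1a, chr4:136602724-136602863, minus strand: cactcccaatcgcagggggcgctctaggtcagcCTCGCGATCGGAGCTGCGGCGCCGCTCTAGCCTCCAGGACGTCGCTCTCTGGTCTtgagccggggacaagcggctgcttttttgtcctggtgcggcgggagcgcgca
Rcor1, chr12:111039101-111039366, plus strand: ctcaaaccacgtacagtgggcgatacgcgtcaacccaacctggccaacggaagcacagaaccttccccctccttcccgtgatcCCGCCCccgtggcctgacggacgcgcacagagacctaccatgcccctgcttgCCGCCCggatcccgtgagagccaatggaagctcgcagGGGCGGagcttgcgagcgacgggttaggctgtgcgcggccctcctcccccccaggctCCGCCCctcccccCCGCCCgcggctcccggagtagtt
Zmym2, chr14:56886146-56886334, plus strand: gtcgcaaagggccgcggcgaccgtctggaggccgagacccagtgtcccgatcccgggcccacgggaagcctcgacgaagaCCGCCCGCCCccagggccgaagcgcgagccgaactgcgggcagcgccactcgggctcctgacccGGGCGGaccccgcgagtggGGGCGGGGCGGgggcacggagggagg
Phf21a, chr2:92350072-92350282, plus strand: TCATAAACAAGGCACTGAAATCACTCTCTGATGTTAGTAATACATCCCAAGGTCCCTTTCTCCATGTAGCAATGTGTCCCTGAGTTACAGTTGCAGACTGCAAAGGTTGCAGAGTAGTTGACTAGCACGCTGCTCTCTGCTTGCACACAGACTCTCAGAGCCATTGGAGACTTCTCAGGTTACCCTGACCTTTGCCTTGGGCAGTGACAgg

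In fed muscle, GR and LSD1 peaks lay at the promoters of most of these genes. A GR fed promoter peak was present at 8 of the 10 genes (all but Rcor2 and Phf21a), against 13.4% of all genes. An LSD1 fed promoter peak was present at 6 (Kdm1a, Kdm1b, Rcor1, Phf21a, Hmg20b and Zmym2), against 22.4% of all genes. In starved muscle, GR promoter peaks were found at 5 genes (Kdm1b, Rcor1, Hdac2, Phf21a and Zmym2), against 23.3% of all genes, and LSD1 promoter peaks at 7 (all but Rcor2, Phf21a and Zmym2), against 16.2%. Among all genes the GR share was higher and the LSD1 share lower in the starved than in the fed lists. Among the 10 genes each count moved the other way under this rule, for LSD1 only from 6 to 7. Part of this rested on midpoints: when any base of a peak in the promoter was counted, GR peaks were at 8 genes in fed muscle (16.0% of all genes) and at 7 in starved muscle (28.9%), with Hdac1 and Hmg20b added. With 1 library per condition and 10 genes, these are counts and not tested differences.

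Within the wider window, 9 genes had a GR fed peak (43.1% of all genes) and 9 a GR starved peak (66.5%). LSD1 peaks were assigned to 8 genes in the fed (51.1%) and to all 10 in the starved list (83.7%). For H3K9me1, 5 genes had a fed peak (38.0%) and 8 a starved peak (65.6%). All 10 had an H3K9me2 fed peak (95.5%) and 1 had an H3K9me2 starved peak (10.2%). Promoter peaks of the marks were rarer: 0 of 10 genes for H3K9me1 fed (1.94%), 1 for H3K9me1 starved (3.1%), 5 for H3K9me2 fed (22.3%) and 0 for H3K9me2 starved (0.21%).

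**Figure D1:**
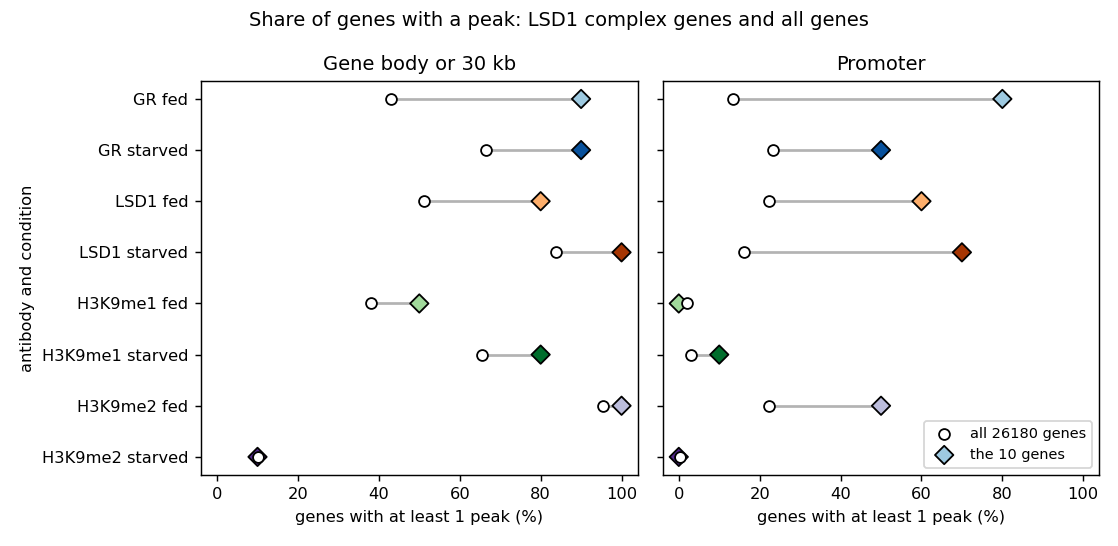
Share of genes with at least 1 peak (x axis, percent) for each antibody and condition (y axis), by the gene body or 30 kb window (left) and by the promoter window (right). Diamonds are the 10 genes and open circles all 26180 genes, and the longest distance is at GR fed promoters, with 80.0% of the 10 genes and 13.4% of all genes.

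In all, 14 and 27 GR peaks (fed and starved) and 12 and 40 LSD1 peaks were assigned to the 10 genes. The genes' windows covered 887.16 kb, and their median length of 70.64 kb exceeded the median of 60.0 kb of all genes. Per 100 kb of window, GR peaks numbered 1.58 fed and 3.04 starved, beside 0.819 and 2.13 over the windows of all genes. LSD1 peaks numbered 1.35 fed and 4.51 starved, beside 0.993 and 2.89 over all windows. The peaks were mostly of moderate height: the median peak of the 10 genes stood at percentile 29.0 of its list by fold over input for GR fed, 62.4 for GR starved, 59.1 for LSD1 fed and 45.6 for LSD1 starved. The LSD1 starved list was the weakest in support, with a q-value (the authors' false discovery rate of a peak) above 0.05 for 25 of the 40 peaks and for 64.2% of the whole list.

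**Figure D2:**
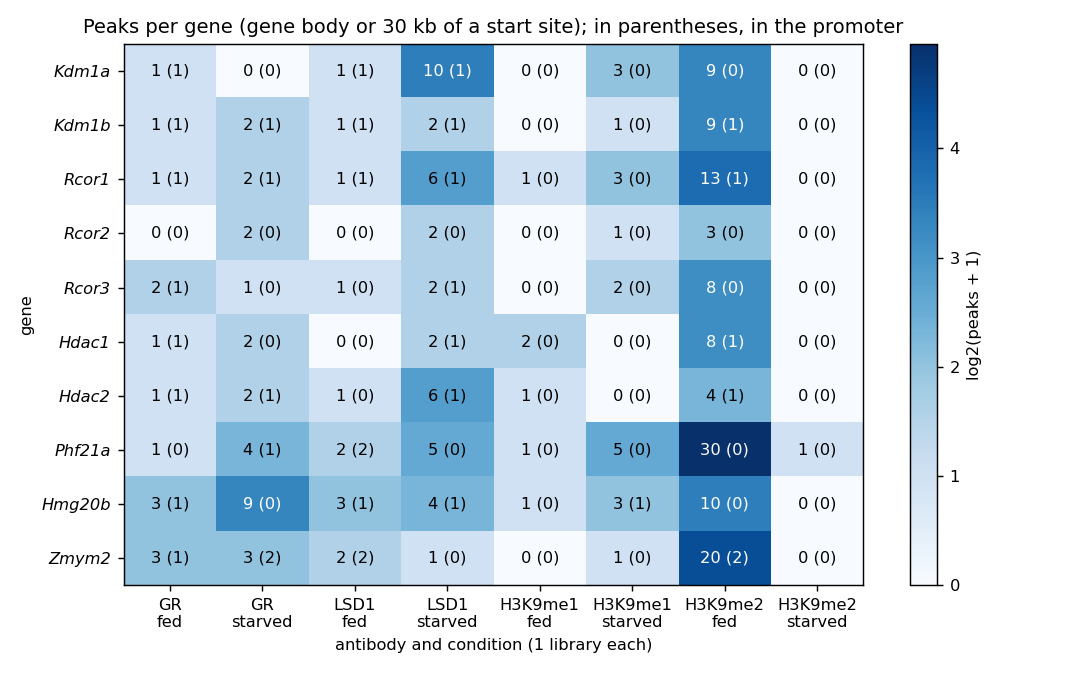
Number of peaks per gene (rows) and antibody and condition (columns, 1 library each) in the gene body or within 30 kb of a start site, with promoter peaks in parentheses. Colour is log2(peaks + 1), and the darkest fields are the H3K9me2 fed peaks of Phf21a (30) and Zmym2 (20).

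Kdm1a encodes LSD1 itself. At its TSS the GR fed peak (chr4:136602678-136602863, midpoint at −47 bp, 3.82-fold over input, q = 0.000112) enclosed the whole LSD1 fed peak (chr4:136602688-136602840, midpoint at −41 bp, 4.35-fold, q = 0.00386), which overlapped it by 153 bp. The LSD1 starved list had a shorter peak of 55 bp inside the same place (midpoint at −80 bp, 4.04-fold, q = 0.0193). Kdm1a was the one gene of the 10 with no GR starved peak in the whole window of 82.19 kb. LSD1 was thus called at the promoter of its own gene in both conditions and GR in the fed list alone, and whether the missing GR starved peak lies beyond the spread between libraries could not be tested.

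The 9 other LSD1 starved peaks of Kdm1a were spread over the gene body, from 9.71 to 50.8 kb downstream of the TSS, and every one overlapped an exon. They lay on exons 2, 6, 9, 12, 15, 16, 17, 19 and 20 of 21, with 1 peak on each. Of the 9, 7 lay wholly within their exon, while those at exons 12 and 16 ran past its upstream edge by 4 and 14 bases, the lower-case letters in the sequences above. In sum 461 of the 479 bp under these peaks were exonic (96.2%), whereas exons make up 3087 of the 52191 bp of the gene body (5.92%). All 461 exonic bases were coding. Exon 1 (492 bp) and exon 21 (501 bp), the longest exons, held no gene-body peak.

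The 6 highest LSD1 starved peaks of the 10 genes were among them. Their fold over input ran from 3.58 at exon 16 to 5.51 at exon 2, with 5.21 at exon 19, 5.00 at exon 9 and 4.95 at exon 6. The peaks of these last 3 exons and of exon 2 stood above percentile 99 of the list, where the exon 2 peak ranked 96 of 66332. The 31 other LSD1 starved peaks of the 10 genes had a median percentile of 34.7 and reached at most 92.4. Of the 8 LSD1 starved peaks of the 10 genes with a q-value of 0.01 or less, 7 were Kdm1a exon peaks, with the lowest q-value of 1.51e-05 at exon 2. All 9 were short, from 49 to 59 bp, a length that 34.7% of the list did not exceed.

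Exon overlap of this extent was rare elsewhere. Of all 30674 LSD1 starved midpoints in gene bodies, 17.4% belonged to a peak that overlapped an exon. Among the 1542 genes with at least 5 gene-body LSD1 starved peaks, Kdm1a was the only gene of more than 1 exon at which all of them did. The other such gene was Neat1 (9 of 9), a long noncoding RNA gene of 1 exon. Other lists held a few such genes of more than 1 exon: 4 of 1092 for GR starved, 1 of 298 for LSD1 fed and 2 of 5093 for H3K9me2 fed, with 0 for GR fed and 0 for the other 3 lists. Kdm1a was not among them.

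At Kdm1a the exon pattern was seen in no other list. GR fed, GR starved and LSD1 fed had no peak with its midpoint in the gene body, H3K9me1 starved had 1 and it overlapped no exon, and 1 of 6 H3K9me2 fed gene-body peaks overlapped an exon. LSD1 fed, H3K9me1 starved and H3K9me2 starved carried the same library code as LSD1 starved. Only 2.65% of all genes had 10 or more LSD1 starved peaks, as Kdm1a did. This share is not adjusted for window length, which was 82.19 kb at Kdm1a, beside a median of 60.0 kb. With the 9 exon peaks left out, the 10 genes held 31 LSD1 starved peaks in place of 40. Whether the reads under the exon peaks came from chromatin or from spliced sequence was not tested, since only peak intervals were used. The exon peaks rest on the LSD1 starved list alone, which holds many more peaks than the study's text gives for it.

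**Figure D3:**
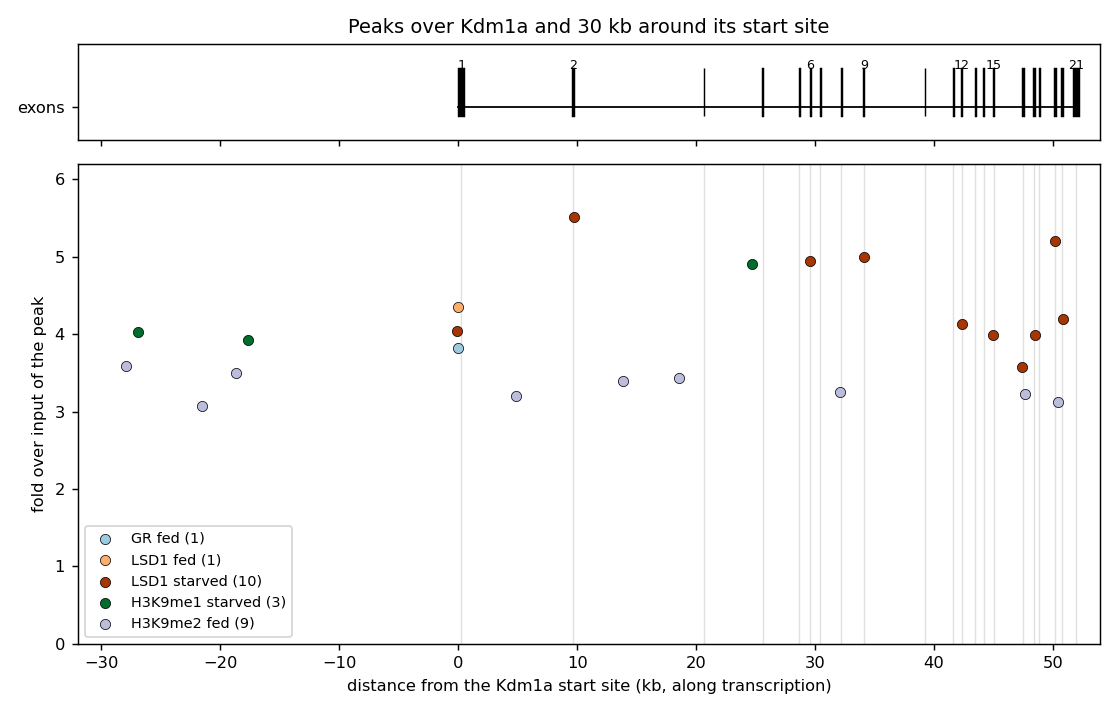
Top, exons of Kdm1a (black, some numbered). Bottom, fold over input (y axis) of each assigned peak against the distance of its midpoint from the start site (x axis, kb along transcription), coloured by list with the number of peaks, and grey lines at the exons. The 9 gene-body LSD1 starved peaks, from 3.58 to 5.51-fold, each sit on an exon line.

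Kdm1b encodes LSD2, the paralogue of LSD1, which also removes methyl groups from histone lysines and is not held by CoREST. Its TSS (chr13:47043499-47085279, plus strand) lies 282 bp from that of Tpmt, so a peak there cannot be given to one of the pair. It was one of 2 genes, with Rcor1, that had a promoter peak in both GR and both LSD1 lists. GR peaks of nearly the same extent were called in fed (536 bp, 3.05-fold, q = 0.0056) and starved muscle (532 bp, 2.87-fold, q = 0.0021), with 527 bp in common. The LSD1 fed peak of 61 bp just downstream of the TSS had the highest fold of any LSD1 fed peak of the 10 genes (4.62-fold, q = 0.000413), and the LSD1 starved peak that overlapped it by 43 bp was lower in its list (3.21-fold, q = 0.0398, percentile 10.9). An H3K9me2 fed peak lay there too (3.60-fold, q = 0.00449). The only other LSD1 starved peak of Kdm1b was on exon 18, nearest the TSS of Dek (3.16-fold, q = 0.072).

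Rcor1 encodes CoREST1, the first scaffold found with LSD1. At its promoter (gene at chr12:111039367-111115902, plus strand) a GR fed peak (3.15-fold, q = 0.00668) and a GR starved peak (3.27-fold, q = 0.000626, percentile 88.8) shared 329 bp, the whole of the starved peak. The LSD1 fed peak (4.23-fold, q = 0.00486) overlapped the GR fed peak by 265 bp. The LSD1 starved peak at this place was weaker in support (3.23-fold, q = 0.0683), as were 5 further LSD1 starved peaks, with q-values from 0.0639 to 0.0748. No TSS of another gene lay in the window of Rcor1, though 2 of its LSD1 starved peaks were nearer to that of Traf3.

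Rcor2 encodes the scaffold best known from stem cells and neurons. It had no GR fed and no LSD1 fed peak, and no promoter peak of any of the 4 antibodies (chr19:7267394-7275225, plus strand). Of its GR starved peaks, that of 2.63-fold lay close to the TSS of Naa40 and that of 2.84-fold at 8.94 kb from a Rcor2 TSS. Its LSD1 starved peaks were also outside the promoter, at −2.16 kb (3.55-fold, q = 0.0573) and nearer to Naa40 (3.17-fold, q = 0.0748). Rcor2 was the only member with no GR and no LSD1 peak at all in the fed lists.

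Rcor3 encodes the third scaffold. It had a GR fed promoter peak (2.94-fold, q = 0.026) and a second GR fed peak at 1.14 kb within the gene (3.30-fold, q = 0.00232), close to the TSS of Gm10516. In starved muscle only the second place was called, at 3.36-fold (q = 0.000366, percentile 90.4). The LSD1 fed peak lay at 139 bp downstream, just outside the promoter window (4.02-fold, q = 0.019), and the LSD1 starved peak at −237 bp (3.71-fold, q = 0.0388). The GR fed and the LSD1 fed peaks of Rcor3 did not overlap.

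The deacetylase genes both had a GR fed promoter peak of 117 bp, at −182 bp of Hdac1 (3.42-fold, q = 0.00213) and at −148 bp of Hdac2 (3.09-fold, q = 0.0097). In starved muscle the Hdac1 peak was 1146 bp long (2.86-fold, q = 0.0119) and covered all 117 bp of the fed peak, but its midpoint at 294 bp fell outside the promoter window. At Hdac2 the GR starved list had peaks on either side of the fed peak and none over it, at −616 bp (2.60-fold, q = 0.0408) and at 169 bp (3.14-fold, q = 0.00131). LSD1 fed was not called at Hdac1. At Hdac2 it was called at 561 bp (4.05-fold, q = 0.00754). LSD1 starved was called at both promoters with little support (3.22-fold, q = 0.0668 at Hdac1 and 3.24-fold, q = 0.0721 at Hdac2). The highest of the 6 LSD1 starved peaks of Hdac2 lay at −16.3 kb (3.97-fold, q = 0.0248). H3K9me2 fed peaks overlapped the Hdac1 GR fed peak (by 116 bp of its 117) and lay at −595 bp of Hdac2 (3.61-fold, q = 0.00867).

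Phf21a encodes BHC80, the subunit that binds the unmethylated tail of histone H3. It has 3 TSS and the longest gene of the 10, 180485 bp at chr2:92184182-92364666 on the plus strand. Its GR fed peak was intronic, 128.7 kb from the nearest TSS of the gene and nearer to that of Large2, and was the highest GR fed peak of the 10 genes (3.87-fold, q = 8.31e-05). The same place was called in the GR starved list, where it was also the highest of the 10 genes (3.48-fold, q = 0.000164, percentile 92.3), with 209 of 211 bp in common, as the capitals in its sequence show. A GR starved promoter peak was added at −69 bp (2.77-fold, q = 0.0224). LSD1 fed lay at 2 promoters of Phf21a, at −589 bp of the first TSS (4.22-fold, q = 0.00217) and at −324 bp of the last (4.62-fold, q = 0.00249), and neither overlapped a GR peak. None of its 5 LSD1 starved peaks was at a promoter, and the highest was intronic (4.12-fold, q = 0.00655).

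Hmg20b encodes BRAF35, an HMG-box protein that binds DNA without strong sequence preference. Its gene is only 4412 bp long (chr10:81346046-81350457, minus strand), and the TSS of 6 other genes lay within its window, so most of its peaks may belong to neighbours. All 3 GR fed peaks overlapped an LSD1 fed peak, and all 3 were also called in the GR starved list, where 9 peaks were assigned. At the promoter GR fed (2.78-fold, q = 0.0323) and LSD1 fed (3.93-fold, q = 0.0154) overlapped by 318 bp. The GR starved peak there was 797 bp long (2.84-fold, q = 0.00225) with its midpoint at 102 bp, just outside the promoter window. The LSD1 starved promoter peak was 3.51-fold (q = 0.0216). The highest GR peaks assigned to Hmg20b lay nearest the TSS of Fzr1 in fed (2.99-fold, q = 0.000256) and of Cactin in starved muscle (3.00-fold, q = 4.42e-05), and the highest LSD1 starved peak lay nearest that of Mfsd12 (3.62-fold, q = 0.0563). Hmg20b was the only gene of the 10 with an H3K9me1 promoter peak, in the starved list (−459 bp, 3.72-fold, q = 0.0196).

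Zmym2 encodes ZNF198, a zinc finger protein that binds SUMO and the LSD1 complex. With no other TSS in its window, it had 3 GR fed peaks, of 2.57-fold over the promoter (1048 bp long, q = 0.0407), 2.90-fold at 468 bp (q = 0.0259) and 2.89-fold on the last exon, nearest the TSS of B020004C17Rik (q = 0.0348). Of 3 GR starved peaks the highest was at 23 bp (2.97-fold, q = 0.000375), with another promoter peak at −990 bp (2.48-fold, q = 0.062). Both LSD1 fed peaks were promoter peaks and lay wholly or mostly under the long GR fed peak, at −363 bp (4.25-fold, q = 0.00106) and at 28 bp (3.63-fold, q = 0.0295). Neither was called in LSD1 starved, where the single peak of Zmym2 was intronic (3.35-fold, q = 0.0748).

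**Figure D4:**
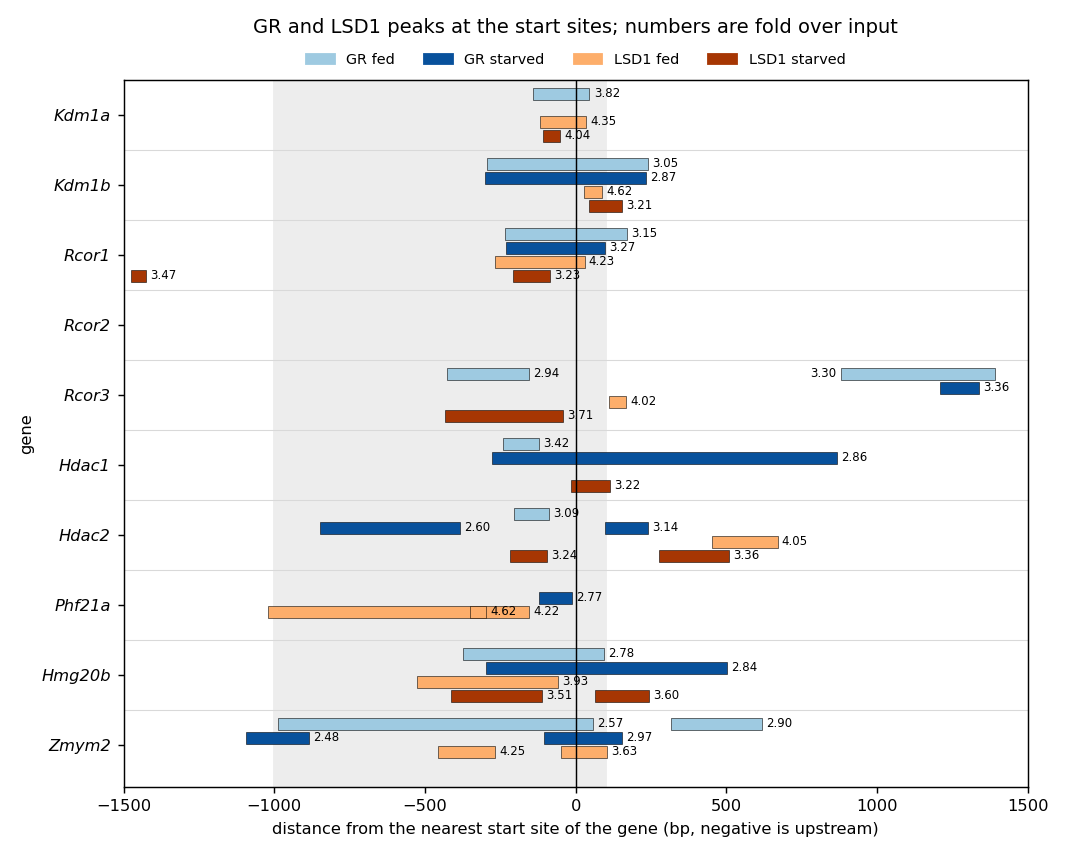
GR and LSD1 peaks as bars around the nearest start site of each gene (x axis, bp, negative upstream), in fed (light) and starved (dark) muscle, with fold over input. The grey band is the promoter window, the Phf21a LSD1 fed bars belong to different start sites and are drawn over each other, and Rcor2 has no bar.

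Support for the promoter peaks differed between lists. With only peaks of a q-value of 0.01 or less, GR fed promoter peaks remained at 5 of the 10 genes (8.09% of all genes), GR starved at 3 (11.3%) and LSD1 fed at 5 (10.4%). LSD1 starved promoter peaks remained at 0 of the 10 (2.99%), against 7 in the full list. The LSD1 starved peaks that passed this level at the 10 genes were 7 of the 9 exon peaks of Kdm1a and 1 intronic peak of Phf21a.

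**Figure D5:**
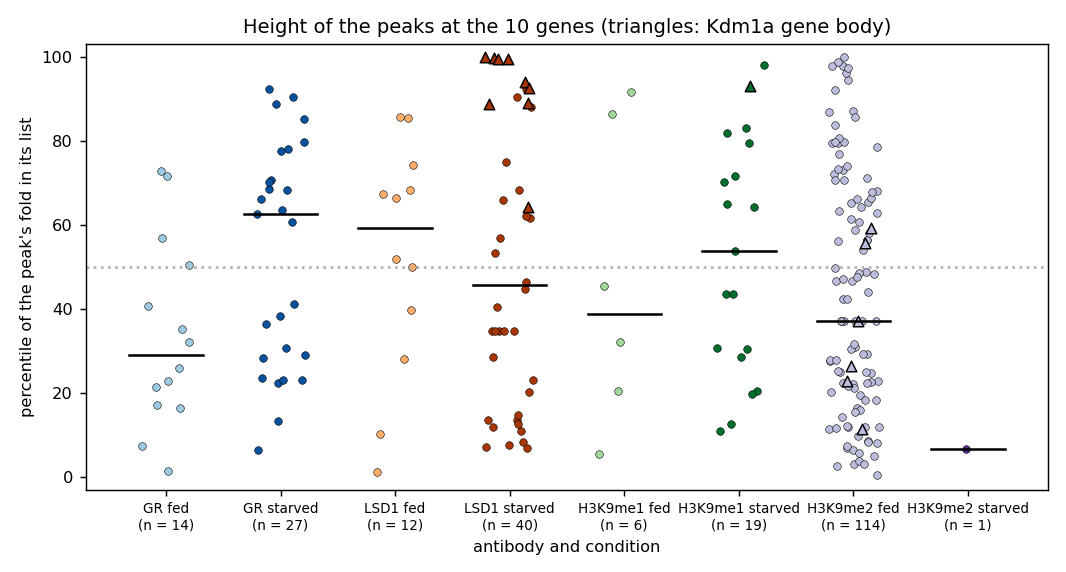
Percentile of each assigned peak's fold over input within its own list (y axis) for the 8 lists (x axis, with the number of peaks), where points are peaks, black lines medians and triangles peaks in the Kdm1a gene body. In LSD1 starved, 4 triangles lie above percentile 99, whereas the 31 peaks drawn as points reach 92.4.

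GR and LSD1 coincided in part. A GR fed peak overlapped by an LSD1 fed peak was found at 5 genes (Kdm1a, Kdm1b, Rcor1, Hmg20b and Zmym2), against 29.5% of all genes. In starved muscle this held at 4 (Kdm1b, Rcor1, Hdac1 and Hmg20b), against 27.7%. Counted by peaks, 7 of 14 GR fed peaks (50%) were overlapped, beside 48.3% of the whole list, and 4 of 27 GR starved peaks (14.8%), beside 14.7%. The overlap of the peaks of these genes was thus close to that of the lists. Between conditions, 9 of 14 GR fed peaks were overlapped by a GR starved peak (64.3%, beside 65.8% of the list). For LSD1, 5 of the 12 peaks in fed muscle had a starved counterpart (41.7%, beside 23.1%), at Kdm1a, Kdm1b, Rcor1, Hdac2 and Hmg20b.

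The methylated histones were distributed otherwise. The 114 H3K9me2 fed peaks came to 12.9 per 100 kb of window, beside 7.72 over the windows of all genes. Of these, 30 were at Phf21a (a number that 1.52% of all genes reached), 20 at Zmym2 (3.90%) and 3 at Rcor2. Such shares are not adjusted for window length, which was 210.5 kb at Phf21a and 105.8 kb at Zmym2, beside a median of 60.0 kb. The highest H3K9me2 fed peak was at Kdm1b (5.45-fold, q = 8.13e-06). Promoter peaks of H3K9me2 fed were those given above at Kdm1b and Hdac2, and peaks of 3.11-fold at Rcor1 (q = 0.0423), 3.20-fold at Hdac1 (q = 0.0517) and 3.16 and 3.04-fold at Zmym2 (q = 0.0248 and 0.0371). The single H3K9me2 starved peak lay at −16.0 kb of Phf21a (3.00-fold, q = 8.7e-17). Its fold was low in the list (percentile 6.65), and the H3K9me2 fed list held a peak over the same bases (3.00-fold, q = 1.02e-17). Of the GR fed peaks of the 10 genes, 8 of 14 were overlapped by an H3K9me2 fed peak (57.1%), beside 16.5% of the GR fed list. They lay at Kdm1b, Rcor3, Hdac1, Phf21a, Hmg20b and Zmym2, and the overlap at Phf21a was only 8 bp. The list share covers peaks at all positions, not promoter peaks alone. The GR fed and H3K9me2 fed libraries shared a library code, whose part in the overlap was not tested. For LSD1 fed the share was 2 of 12 (16.7%), beside 16.8%. The LSD1 fed peaks of the 10 genes were shorter than their GR fed peaks (median 171 and 285.5 bp). H3K9me1 peaks numbered 6 fed and 19 starved, and the highest was a starved peak at −10.7 kb of Rcor3 (5.40-fold, q = 7.25e-05).

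Promoter sequences of 300 bp (250 bp before a TSS and 50 bp after it, RefSeq, GRCm38.p6) were matched for 9 of the 10 genes, with 13 sequences. Their median GC content was 69.3%, beside 52.7% for the 32851 promoters of the table. The GC box (GGGCGG), a binding sequence of the SP1 family, was in 10 of the 13 sequences, beside 35.7% of all promoters, and Kdm1a was the one of the 9 genes with none. None of the 13 held the nuclear respiratory factor 1 (NRF1) core in the form GCGCATGCG (in 1.75% of all promoters) or the ETS core (CCGGAAG, 8.86%). None held the glucocorticoid response element (GRE) half-site (AGAACA, 19%) or a full GRE of 2 inverted half-sites 3 bp apart (0.00913%). All were searched on both strands without mismatch, so variants of a core were not counted. The Kdm1a promoter held GCGCACGCG, a close variant of the NRF1 core that the search did not cover. Variants were not counted in the other promoters, so it cannot be called particular to Kdm1a.

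In the peaks themselves, GC boxes were found in 7 of 14 GR fed peaks (26.6% of the list on these chromosomes), 12 of 27 GR starved peaks (21.3%), 8 of 12 LSD1 fed peaks (29.5%) and 7 of 40 LSD1 starved peaks (5.18%). The upstream part of the Rcor1 LSD1 fed peak held 5 of them and the Zmym2 peak shown above 5, some overlapping. The GRE half-site was in 0 of 14 GR fed peaks (30.3%) and 5 of 27 GR starved peaks (25.6%), and no GR peak of these genes held a full GRE, which 0.249% of GR fed and 0.0558% of GR starved peaks did. The NRF1 core in the form GCGCATGCG was in none of the 12 LSD1 fed and 40 LSD1 starved peaks (1.34% and 0.173% of the lists). The variant GCGCACGCG, which was not searched, lay in the LSD1 fed peak of Kdm1a, and another, GCGCATGCC, in the GR fed peak of Hdac1. The list shares cover peaks at all positions, whereas 8 of the 10 genes had a GR fed promoter peak. Shares over promoter peaks alone were not computed. A match or its absence describes these letters alone.

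Other lists of related genes were counted under the same rule. Of 11 further subunits and recruiters of the complex (Zmym3, Gse1, Zfp217, Ctbp1, Ctbp2, Rest, Gfi1, Gfi1b, Snai1, Snai2 and Insm1), 3 had a GR fed and 6 an LSD1 fed promoter peak, and 3 had one in each starved list. The highest LSD1 fed peak in their wider windows was at the promoter of Snai1, a repressor that recruits LSD1 (−198 bp, 4.60-fold, q = 0.00114). The next lay far from the TSS of the corepressors Ctbp2 (22579 bp, 4.45-fold, q = 0.000981) and Ctbp1 (29169 bp, 4.24-fold, q = 0.00928). Of 12 subunits of the NuRD and Sin3 complexes, which also hold HDAC1 and HDAC2, 3 had a GR fed and 5 an LSD1 fed promoter peak, with 4 and 3 in the starved lists. The highest LSD1 fed peaks there lay outside the promoter window. They were at 673 bp of Mbd3 (5.26-fold, q = 5.7e-05), 4347 bp of Chd3 (4.67-fold, q = 0.000426) and 26641 bp of Mta1 (4.43-fold, q = 0.00282). GR fed promoter peaks were counted at 8 of 10 LSD1 complex genes, at 3 of 11 and 3 of 12 in these lists and at 7 of 10 muscle markers, beside 13.4% of all genes. For LSD1 fed the counts were nearer to each other, with 6 of 10, 6 of 11, 5 of 12 and 8 of 10, beside 22.4%.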

How the data were processed

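ChIP-seq libraries of skeletal muscle were grouped by antibody and condition from the labels. Per the study's methods and the labels, the authors mapped single-end reads to mm10 (GRCm38), and broad peaks were called per library with MACS2 against the input library. The 2 input libraries entered only in this way. bcl2fastq 2.20.0.422 is named in the submitters' processing notes. Each deposited list gives per peak a fold over input as a ratio, −log10 of the p-value and −log10 of the q-value, and a score by the authors that was not used here. The LSD1 starved list holds many more peaks than the study's text states and is possibly a different version, and the age in the labels differs from that text. The authors' methods state a stricter false discovery rate than the deposited q-values reach, and a blacklist made for the human genome.

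Folds are relative to an input library, of which there were 2 in all (fed and starved), so lists shared an input. They were ranked within a list. Minimum peak lengths differed between lists (117 and 110 bp for GR, 49 to 55 bp for the others), and short peaks overlap less often. Gene windows, promoters and exons were built from 45754 curated RefSeq transcripts, and an overlap needed 1 bp. The assignment was tested on simulated peaks. Python 3.11.15, pandas 2.3.3 and pysam 0.24.0 were used. All 10 genes are named, with their promoter peaks and their highest GR and LSD1 peaks, and at most 3 genes of each context list, by LSD1 fed fold. A further gene of a context list is not reported here and was left out of its counts. The genes, lists and motifs were chosen with earlier results of these data known, and the exon overlap was noticed in the data. Alternatives were q-values of 0.01 and 1e-05, other windows, the nearest TSS, equally long fed and starved lists of an antibody, and other overlap rules.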

Additional observations from a re-analysis of the deposited data

How the results depend on the processing

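Of 97 recomputed counts, 70 stayed within 1.5 times the value reported and 27 did not. Most of these came from stricter q-values. With a q-value of 1e-05 or less, genes with a peak numbered 0 for both GR lists, both LSD1 lists and both H3K9me1 lists and 2 for H3K9me2 fed. At that level promoter peaks were left at 0 genes for GR fed, GR starved, LSD1 fed, LSD1 starved, H3K9me1 starved and H3K9me2 fed, and 0 of the Kdm1a exon peaks passed. With a q-value of 0.01 or less, genes with a peak fell to 2 for LSD1 starved and 2 for H3K9me1 fed. Of the whole lists, 10.2% of LSD1 starved and 41.0% of H3K9me1 fed peaks passed this level. Promoter peaks were then left at 5 genes for GR fed, 3 for GR starved, 0 for LSD1 starved, 0 for H3K9me1 starved and 2 for H3K9me2 fed, and GR starved peaks overlapped by LSD1 starved at 0 genes. With the fed and the starved list of each antibody made equally long by fold, 3 genes had an LSD1 starved peak and 4 an H3K9me2 fed peak. Lists of different antibodies were not made equally long. H3K9me1 fed peaks were assigned to 3 genes by the 30 kb window alone and to 3 by the nearest TSS, and H3K9me2 starved to 0 with a 10 kb window. The other window, promoter and overlap rules moved no count beyond 1.5 times. Shares of all genes were recomputed only for GR and LSD1 promoter peaks at a q-value of 0.01, and for GR peaks with any base in the promoter. The other counts here have no such share, and a shorter list lowers the count of any set of genes. The rules for the Kdm1a exon peaks (midpoint in an exon, and both q-values) were added after seeing the data. No paired analysis was possible because each antibody and condition had 1 library. With no read numbers, a missing peak cannot be told apart from a shallow library, and none of the differences between fed and starved lists has a replicate.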
